A study of Mus musculus with 8 samples.

Results

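Immediate early genes are the first genes that a cell transcribes when a growth factor, a cytokine or a stress reaches it, and they need no new protein to be switched on. The 10 examined here are Fos, Fosb, Fosl2, Junb, Jund, Egr1, Ier2, Ier5, Atf3 and Klf6. They were chosen by symbol from the deposited gene table of 55487 rows, and all 10 were found and passed the filter on low counts, as did 15056 genes in all. Polyadenylated RNA of whole sciatic nerve was sequenced from mouse pups at postnatal day 6, when Schwann cells, which ensheathe peripheral axons, are still dividing and have begun to myelinate. The 4 conditional knockout libraries (CNP-Cdk7cKO) came from animals of genotype CNPcre/+ Cdk7lox/lox, which carry Cre recombinase at 1 Cnp allele and have both Cdk7 alleles floxed. The 4 control libraries (Ctrl) came from CNP+/+ Cdk7lox/lox animals, which carry the same floxed alleles and no Cre. The knockout therefore also differs from the control in a Cnp allele, and Cre follows a gene of myelin-forming glia. Other cells of the nerve are not its intended target, and which cells recombined was not tested. Whether the libraries of a group are from different animals is not in the labels, and the p-values describe no more than the spread among these 8 libraries.

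Fos, Fosb and Fosl2 encode Fos family proteins, and Junb and Jund encode Jun family proteins. A Fos protein pairs with a Jun protein through a leucine zipper to form AP-1, a transcription factor, and Atf3 is a related zipper protein that rises under stress. Egr1 and Klf6 are zinc finger transcription factors. Ier2 and Ier5 encode small nuclear proteins of the immediate early response. Signals reach these genes mainly through the MAP kinases, serum response factor and CREB, and many of their transcripts are short-lived. Injured Schwann cells use Jun to become repair cells, and Cdk7 is the TFIIH kinase that acts on the tail of RNA polymerase II at promoters.

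In CNP-Cdk7cKO nerves Junb, Ier5 and Ier2 rose, Klf6 fell, and the other 6 members did not pass the test. The 4 changes were between 1.298-fold and 1.504-fold in size where higher, and to 0.719 of the Ctrl level for Klf6. A gene is called at an adjusted p under 0.05 (edgeR, quasi-likelihood F test; p-values adjusted by Benjamini and Hochberg's method for the 15056 genes). Of all tested genes 11.7% were called, 5.07% higher and 6.60% lower, against 3 and 1 of the 10 members. The members' median log2 fold change was 0.15, against 0.00309 for all tested genes.

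The promoter windows of Junb, Ier5 and Klf6, which were called, are shown with that of Fos, the best studied gene of the class, which was not. They are RefSeq windows on build GRCm38.p6, from 250 bases before to 50 bases after the RefSeq start, and 8 of the 10 members had an entry in the table used. For 5 of the 8, the 4 shown and Fosb, the RefSeq start lies within 50 bases of the GENCODE gene start. It lies 671 bases inside the gene for Fosl2 and 34.7 kb inside it for Atf3, and 1.21 kb before it for Jund, so those 3 windows belong to another start. Capitals mark a GC box (GGGCGG, either strand), the core of the cyclic AMP response element (TGACG, either strand) and the letters of the TATA box (TATAAA, sense strand).
Junb, chr8:84978699-84978998, - strand: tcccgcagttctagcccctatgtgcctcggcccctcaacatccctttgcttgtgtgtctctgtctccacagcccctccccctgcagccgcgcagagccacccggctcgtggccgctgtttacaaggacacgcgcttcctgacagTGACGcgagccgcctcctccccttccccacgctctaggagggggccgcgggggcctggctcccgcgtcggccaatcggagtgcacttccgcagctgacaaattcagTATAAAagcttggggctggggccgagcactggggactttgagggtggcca
Ier5, chr1:155099587-155099886, - strand: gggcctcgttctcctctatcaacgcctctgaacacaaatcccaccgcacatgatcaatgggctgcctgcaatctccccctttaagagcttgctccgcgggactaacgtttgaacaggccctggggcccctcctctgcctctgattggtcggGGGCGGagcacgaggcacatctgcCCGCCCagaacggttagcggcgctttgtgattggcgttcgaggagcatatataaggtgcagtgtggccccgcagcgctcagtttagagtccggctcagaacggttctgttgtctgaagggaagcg
Klf6, chr13:5861239-5861538, + strand: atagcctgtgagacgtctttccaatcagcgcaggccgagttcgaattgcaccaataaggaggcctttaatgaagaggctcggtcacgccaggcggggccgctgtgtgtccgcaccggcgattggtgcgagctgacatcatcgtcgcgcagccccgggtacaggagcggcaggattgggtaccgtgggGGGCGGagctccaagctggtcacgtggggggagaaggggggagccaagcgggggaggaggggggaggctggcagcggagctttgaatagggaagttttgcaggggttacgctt
Fos, chr12:85473640-85473939, + strand: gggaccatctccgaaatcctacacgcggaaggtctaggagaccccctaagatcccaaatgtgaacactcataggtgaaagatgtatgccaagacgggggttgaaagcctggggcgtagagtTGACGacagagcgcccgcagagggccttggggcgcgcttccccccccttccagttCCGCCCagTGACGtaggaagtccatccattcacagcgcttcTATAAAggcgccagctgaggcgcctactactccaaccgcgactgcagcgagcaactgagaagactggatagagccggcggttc

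Of the 8 windows 6 held a GC box (4 of the 5 at the GENCODE start), against 35.7% of 32851 windows of the same length. Those 32851 windows were not limited to tested genes and not matched for GC content. The TGACG core was in 4 of the 8 (Fos, Fosb, Junb and Atf3), against 20.8% of all windows, and TATAAA in 2 (Fos and Junb), against 8.32%. In Fos TATAAA began 33 bases before the start and the cores 66 and 129 bases before it. In Junb TATAAA began at base 1, on the RefSeq start itself, and the core 106 bases before it. That RefSeq start lies 30 bases before the GENCODE start of Junb, so TATAAA began 30 bases before the GENCODE start. The full element TGACGTCA, the AP-1 site TGAGTCA and the CArG box of serum response factor were in 0 of the 8 windows on either strand. The CArG box was sought in its strict form only. Sequence more than 250 bases before the start was not searched, nor were Egr1 and Ier2, which had no entry. The 0 thus does not show that the members lack such sites. They were in 1.79%, 5.2% and 1.63% of all windows. TGACG is contained in TGACGTCA. Of the called members with a window, Junb held the TGACG core and TATAAA, and Ier5 and Klf6 held GC boxes. Junb and Ier5, which both rose, thus shared none of these exact strings. Looser forms, such as the tatataa in the Ier5 window, were not searched for.

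AU-rich pentamers (ATTTA) in the 3′ untranslated region are bound by decay factors such as Zfp36. The stretch of 30 bases with most ATTTA is shown for the same genes, from the protein-coding GENCODE M21 transcript with the longest 3′ UTR, with each ATTTA in capitals. Where stretches tied, as at 1 ATTTA in Junb, Ier5 and Klf6, the first is shown.
Junb, 3′ UTR bases 240 to 269: atatatttgtgtATTTAacagggaggggag
Ier5, 3′ UTR bases 1629 to 1658: gaggttggctaaATTTAattctcatgtagc
Klf6, 3′ UTR bases 727 to 756: tgtataagctgtATTTAcaaatcgcagtgg
Fos, 3′ UTR bases 643 to 672: tgtgttttcaATTTATTTAttaagatggat

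Junb had 2 ATTTA in a 3′ UTR of 485 bases (4.12 per kb), Ier5 had 2 in 2143 bases (0.933 per kb), and Klf6 had 7 in 3111 bases (2.25 per kb). Ier2 had 0 in 755 bases. Fos had 4 in 815 bases (4.91 per kb). The median over 13262 tested genes with a 3′ UTR of at least 100 bases was 1.35 per kb. Junb, Klf6 and Fos thus lay above the median and Ier5 and Ier2 below it, so the members that rose lay on both sides.

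The libraries held between 16897242 (Ctrl 1) and 21527891 (Ctrl 3) estimated counts. Cdk7 was at 9.62, 11.8, 12.7 and 12.1 CPM in CNP-Cdk7cKO 1 to 4 and at 21.7, 22.2, 21.4 and 20.6 CPM in Ctrl 1 to 4 (CPM, the count relative to the scaled library size; log2 fold change -0.89 ± 0.09 SE, edgeR adjusted p = 0.000181). Counts over the whole gene do not separate a transcript that lacks the floxed exons from an intact one. By Xist and 4 Y-linked genes, all 4 CNP-Cdk7cKO libraries and Ctrl 1 were female and Ctrl 2 to 4 male, so sex and group are nearly confounded. The 20 skeletal muscle markers summed to between 106 and 674 CPM in CNP-Cdk7cKO and between 594 and 5814 CPM in Ctrl. The 8 Schwann cell markers used were all detected and summed to between 4216 and 4402 CPM in CNP-Cdk7cKO and between 4933 and 5522 CPM in Ctrl, and 5 of the 8 fell. The 10 macrophage markers summed to between 541 and 677 CPM in CNP-Cdk7cKO and between 448 and 577 CPM in Ctrl, and the 10 fibroblast and perineurial markers to between 45405 and 51583 CPM against 39594 to 45004 CPM. In whole nerve, fewer cells of a type and less RNA per cell cannot be told apart. The part of sex and of cell mix in the values below was not tested except where a value is given.

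**Figure D1:**
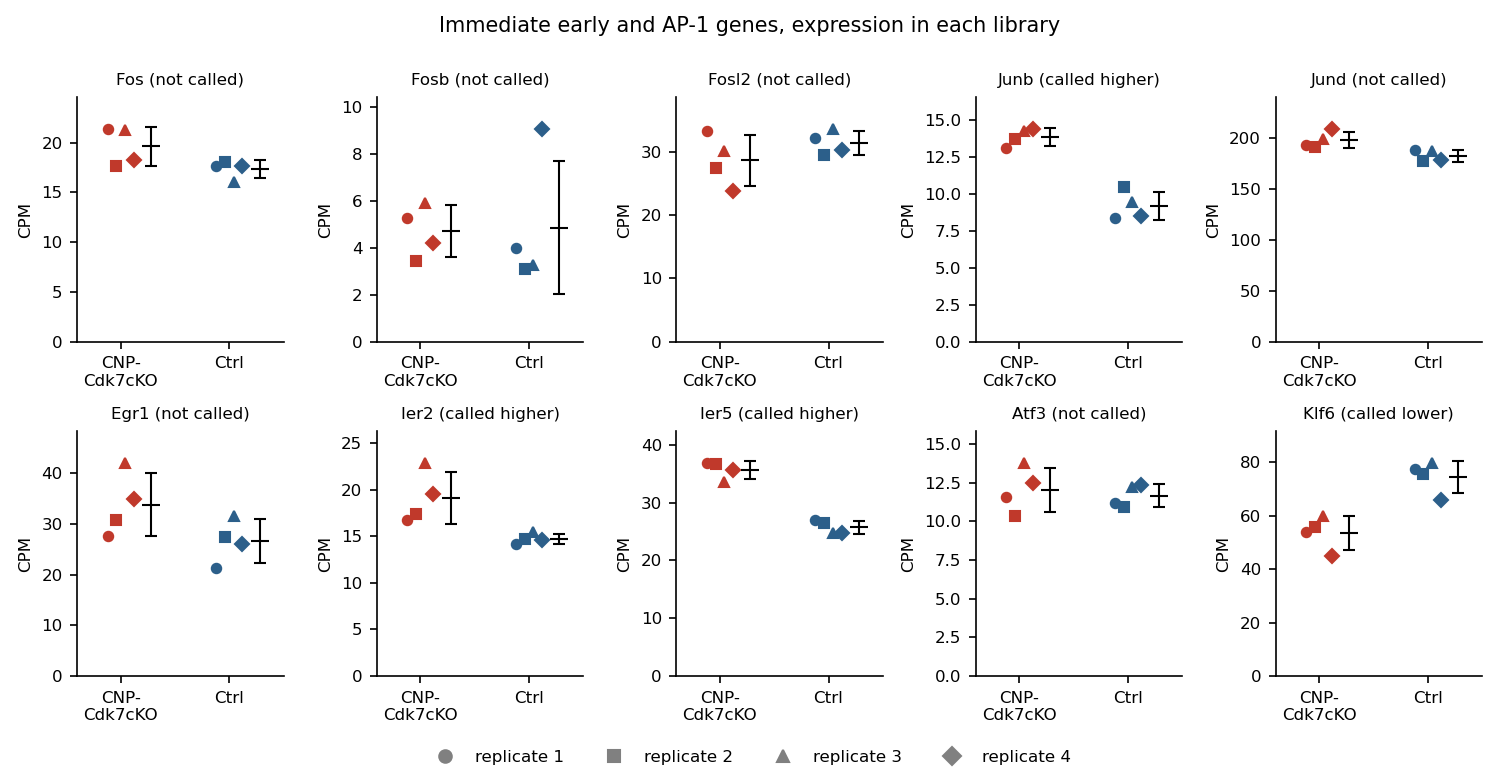
Expression of each member in CPM in the 4 CNP-Cdk7cKO libraries (red, left) and the 4 Ctrl libraries (blue, right), with a symbol for each replicate number and the mean ± SD in black; axes start at 0 and differ between panels. Junb, Ier2 and Ier5 lie higher and Klf6 lower in CNP-Cdk7cKO without overlap, and Fosb has a lone high value of 9.07 CPM in Ctrl 4.

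Of the Jun family genes, Junb rose. Junb, on chromosome 8 from 84974484 to 84978718, minus strand (GRCm38, as are all gene positions here), encodes a Jun protein with weak activating capacity that can oppose Jun. It was at 13.1, 13.7, 14.3 and 14.4 CPM in CNP-Cdk7cKO 1 to 4, against 8.39, 10.4, 9.43 and 8.53 CPM in Ctrl 1 to 4. All 4 knockout values lay above all 4 control values, and they spread over less than 2 CPM. The means were 13.8 ± 0.595 and 9.20 ± 0.951 CPM (SD, n = 4 each), a log2 fold change of 0.59 ± 0.09 (SE; edgeR adjusted p = 0.00266). It was called with each library left out in turn.

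Jund, on chromosome 8 from 70698949 to 70700616, encodes the Jun protein that most cells keep without stimulation. It was at 193.7, 191.2, 199.8 and 209.3 CPM in CNP-Cdk7cKO 1 to 4, against 188.3, 177.4, 187.6 and 178.9 CPM in Ctrl 1 to 4. The groups did not overlap, but the difference was small (log2 fold change 0.12 ± 0.04 SE, interval 0.02 to 0.22) and did not pass (edgeR adjusted p = 0.121). Intervals here are at 95% for a gene taken alone, with no adjustment over genes. Groups that did not overlap were seen in 18.8% of all tested genes, 9.34% with CNP-Cdk7cKO above and 9.51% with it below, against 4 and 1 of the 10 members.

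Of the Fos family members, Fos, Fosb and Fosl2, none passed the test. Fos, on chromosome 12 from 85473890 to 85477273, is the classical inducible partner of the Jun proteins. It was at 21.4, 17.6, 21.3 and 18.3 CPM in CNP-Cdk7cKO 1 to 4, against 17.6, 18.05, 16.05 and 17.6 CPM in Ctrl 1 to 4. Knockout libraries 1, 3 and 4 lay above every control, the last of them narrowly, while knockout library 2 lay among the controls (log2 fold change 0.18 ± 0.08 SE, interval 0.00310 to 0.36, edgeR adjusted p = 0.184). Fosl2, on chromosome 5 from 32135801 to 32157842, encodes a Fos protein with slower and longer induction. It was at 33.3, 27.5, 30.2 and 23.7 CPM in CNP-Cdk7cKO 1 to 4, against 32.1, 29.4, 33.6 and 30.3 CPM in Ctrl 1 to 4, and the groups overlapped (log2 fold change -0.13 ± 0.09 SE, edgeR adjusted p = 0.405).

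Fosb, on chromosome 7 from 19302696 to 19310051, was the lowest member, with between 60 and 186 counts per library. It was at 5.28, 3.43, 5.94 and 4.22 CPM in CNP-Cdk7cKO 1 to 4, against 3.98, 3.10, 3.29 and 9.07 CPM in Ctrl 1 to 4. Ctrl 4 was above every other library, and it also held most muscle transcripts. The log2 fold change of -0.05 ± 0.33 (SE, edgeR adjusted p = 0.946) has an interval from -0.77 to 0.67, and without Ctrl 4 the log2 fold change was 0.45 (edgeR adjusted p = 0.215).

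Atf3, on chromosome 1 from 191170296 to 191218039, is strongly induced by axon injury in neurons and Schwann cells. It was at 11.6, 10.3, 13.8 and 12.5 CPM in CNP-Cdk7cKO 1 to 4, against 11.2, 10.9, 12.2 and 12.3 CPM in Ctrl 1 to 4. CNP-Cdk7cKO 3 and 4 lay above the Ctrl range, CNP-Cdk7cKO 2 below it and CNP-Cdk7cKO 1 within it, so the groups overlapped, with a log2 fold change of 0.04 ± 0.10 (SE; edgeR adjusted p = 0.8287) and an interval from -0.18 to 0.26.

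Among the zinc finger genes, Klf6 fell and Egr1 did not pass. Klf6, on chromosome 13 from 5861482 to 5870394, belongs to the Krüppel-like factors, which bind GC-rich promoter sequence. It was at 53.7, 55.7, 60.0 and 45.05 CPM in CNP-Cdk7cKO 1 to 4, against 77.3, 75.4, 79.6 and 65.8 CPM in Ctrl 1 to 4. The highest knockout value lay below the lowest control value, and library 4 was the lowest of each group. The means were 53.6 ± 6.29 and 74.5 ± 6.07 CPM (SD, n = 4 each), a log2 fold change of -0.48 ± 0.09 (SE; edgeR adjusted p = 0.00593). The call held with each library left out in turn.

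Egr1, on chromosome 18 from 34859823 to 34864984, is a serum-induced factor that immature and dividing Schwann cells express. It was at 27.6, 30.9, 42.0 and 34.9 CPM in CNP-Cdk7cKO 1 to 4, against 21.2, 27.5, 31.7 and 26.0 CPM in Ctrl 1 to 4. Library 3 was the highest of each group and library 1 the lowest, and knockout libraries 1 and 2 lay within the control range. The log2 fold change was 0.34 ± 0.14 (SE, interval 0.04 to 0.64, edgeR adjusted p = 0.137).

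Ier5 and Ier2 rose. Ier5, on chromosome 1 from 155096361 to 155099636, encodes a nuclear protein that promotes the activity of heat shock factor HSF1. It was at 36.8, 36.7, 33.5 and 35.6 CPM in CNP-Cdk7cKO 1 to 4, against 27.0, 26.4, 24.7 and 24.7 CPM in Ctrl 1 to 4. The knockout values lay well above the controls, with a gap wider than the range of either group. The means were 35.7 ± 1.54 and 25.7 ± 1.18 CPM (SD, n = 4 each; log2 fold change 0.47 ± 0.05 SE, edgeR adjusted p = 0.000457), and the call held with each library left out. Ier2, on chromosome 8 from 84661331 to 84662852, lies 312 kb from Junb on the same strand. It was at 16.7, 17.4, 22.8 and 19.5 CPM in CNP-Cdk7cKO 1 to 4, against 14.1, 14.7, 15.5 and 14.6 CPM in Ctrl 1 to 4. The groups did not overlap, but the knockout values spread more widely than the controls and knockout library 3 led (log2 fold change 0.38 ± 0.10 SE, edgeR adjusted p = 0.0300). Ier2 was called in 2 of the 8 fits that left out a library. The adjusted p was at most 0.0727 in the others, which left out CNP-Cdk7cKO 3 or 4 or any of the 4 Ctrl libraries.

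**Figure D2:**
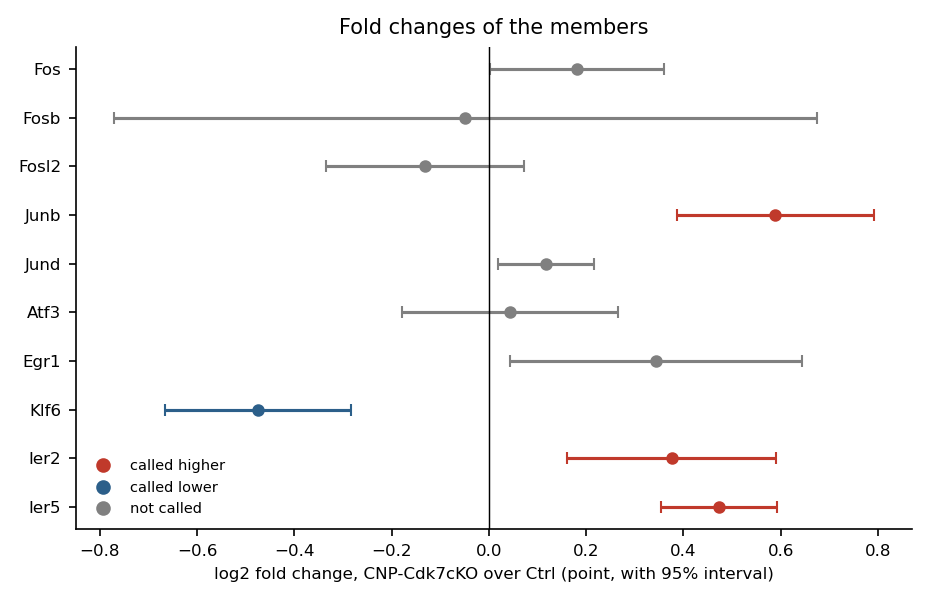
Log2 fold change of each member, CNP-Cdk7cKO over Ctrl, from edgeR on 4 libraries per group, with its 95% interval; colour gives the call at an adjusted p under 0.05. Junb, Ier2 and Ier5 lie right of 0 and Klf6 left of it, while the intervals of the uncalled Fos, Jund and Egr1 also exclude 0 before adjustment over genes and that of Fosb is the widest.

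Each of the 4 calls was made on groups that differ in sex. In Ctrl 1, the female control, all 4 called members lay outside the CNP-Cdk7cKO range, on the same side as the male controls. Groups that do not overlap already require this, so it is no separate check on sex. Xist was at 305 CPM in Ctrl 1 and at most 0.103 CPM in Ctrl 2 to 4. A fit with Xist as a covariate thus compares CNP-Cdk7cKO mainly with Ctrl 1. Of the 4, only Junb stayed past the threshold in it, and narrowly. The log2 fold changes were 0.72 (Junb), 0.44 (Ier2), 0.40 (Ier5) and -0.53 (Klf6), with edgeR adjusted p of 0.0491, 0.238, 0.0651 and 0.0932. Among the female libraries alone, where Ctrl 1 is assumed to vary like the knockout libraries, they were 0.72, 0.43, 0.40 and -0.53, with edgeR adjusted p of 0.0645, 0.366, 0.179 and 0.136. Standard errors of the members were wider by a median of 1.665 times with Xist and 1.77 times in the female libraries. With the muscle markers as a covariate the log2 fold changes were 0.46, 0.19, 0.45 and -0.61, and 0 of the 4 was called.

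**Figure D3:**
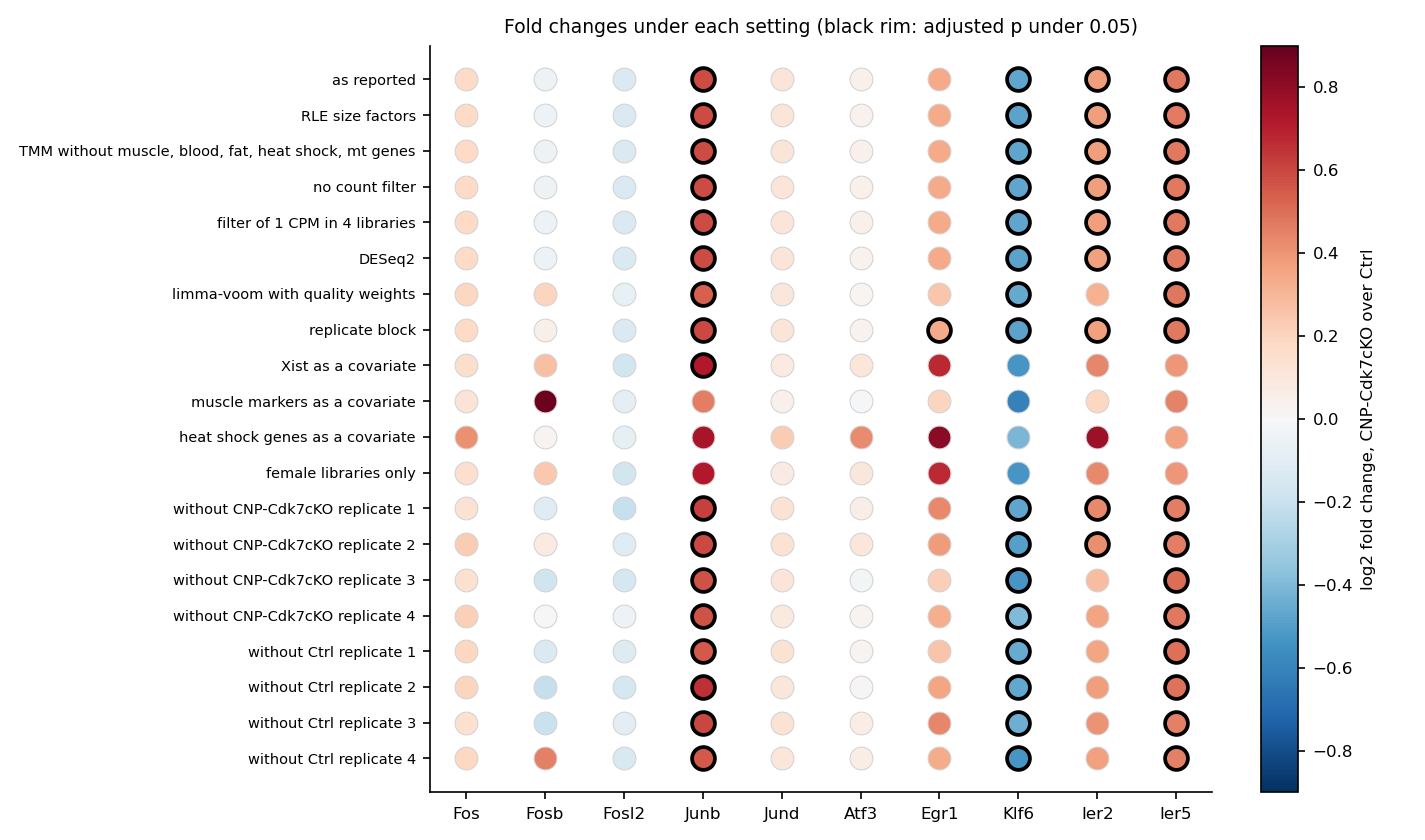
Log2 fold change of each member (columns) as reported and under 19 alternative settings (rows); red is higher and blue lower in CNP-Cdk7cKO, and a black rim marks an adjusted p under 0.05. Junb, Ier5 and Klf6 keep colour in every row and their rim with any library left out, and Fosb changes colour in 9 rows.

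The members also differed in level and gene structure. Levels between genes are compared per kilobase of annotated exon, taken over all transcripts, in CPM per kb. Jund stood first in both groups (119 in CNP-Cdk7cKO and 109.7 in Ctrl) and Fosb last (0.755 and 0.778). In CNP-Cdk7cKO, Ier2 (12.6), Klf6 (12.2), Ier5 (10.9), Fos (8.36), Egr1 (7.55), Junb (6.02), Atf3 (5.59) and Fosl2 (2.96) followed Jund. Library ranges overlapped between neighbours for Ier2 with Klf6, Klf6 with Ier5, Fos with Egr1, Egr1 with Junb and Junb with Atf3. In Ctrl the order was Klf6 (16.98), Ier2 (9.67), Ier5 (7.85), Fos (7.37), Egr1 (5.93), Atf3 (5.42), Junb (4.00) and Fosl2 (3.24), with overlap of Ier5 with Fos, Fos with Egr1 and Egr1 with Atf3. Klf6 thus lay above Ier2 without overlap in Ctrl and level with it in CNP-Cdk7cKO. The 3 members that rose, and Jund, have a longest annotated transcript of 1 exon, and Klf6, Fos, Fosb, Fosl2 and Atf3 have 4 exons. Of 772 tested protein-coding genes of the first kind 8.29% were higher and 3.50% lower, against 5.18% and 7.14% of 12944 with 2 or more exons.

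Jun, Junb and Jund took different shares of the Jun family in the 2 groups, which is given as a description with no test. Jun itself, the main Jun gene of the injury response and not among the 10, fell to 81.8 ± 9.42 CPM in CNP-Cdk7cKO, against 106.4 ± 12.03 CPM in Ctrl (SD, n = 4 each; log2 fold change -0.38 ± 0.09 SE, edgeR adjusted p = 0.0248). It was called in 3 of the 8 fits that left out a library and in 11 of all 19 alternatives. Its log2 fold change was -0.03 (edgeR adjusted p = 0.9747) with the heat shock genes as a covariate and between -0.31 and -0.65 in the other 18. Of the summed Jun, Junb and Jund transcripts per kb, Junb made up 3.79% to 4.15% in CNP-Cdk7cKO libraries and 2.36% to 3.14% in Ctrl libraries. Jun made up 15.3% to 18.9% in CNP-Cdk7cKO and 20.7% to 24.7% in Ctrl. Jund made up 77.3% to 80.7% in CNP-Cdk7cKO and 73.0% to 76.6% in Ctrl. The family sum was near equal, with a mean of 150.7 CPM per kb in CNP-Cdk7cKO and 147.1 in Ctrl. In the Fos family, Fos made up 66.0% to 68.7% in CNP-Cdk7cKO and 61.9% to 68.0% in Ctrl, and the groups overlapped, as they did for Fosb. Fosl2 made up 21.7% to 25.3% in CNP-Cdk7cKO and 25.9% to 32.1% in Ctrl, without overlap. The share of Fosl1 did not overlap either, at 1.29% to 3.62% in CNP-Cdk7cKO and 0% to 0.78% in Ctrl. Fosl1 was below the count filter, with 16, 14, 7 and 17 counts in CNP-Cdk7cKO 1 to 4 and 3, 3, 0 and 1 counts in Ctrl 1 to 4 (named after its values were seen). With no count filter it was called higher (log2 fold change 2.79 ± 0.62 SE, edgeR adjusted p = 0.00741).

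**Figure D4:**
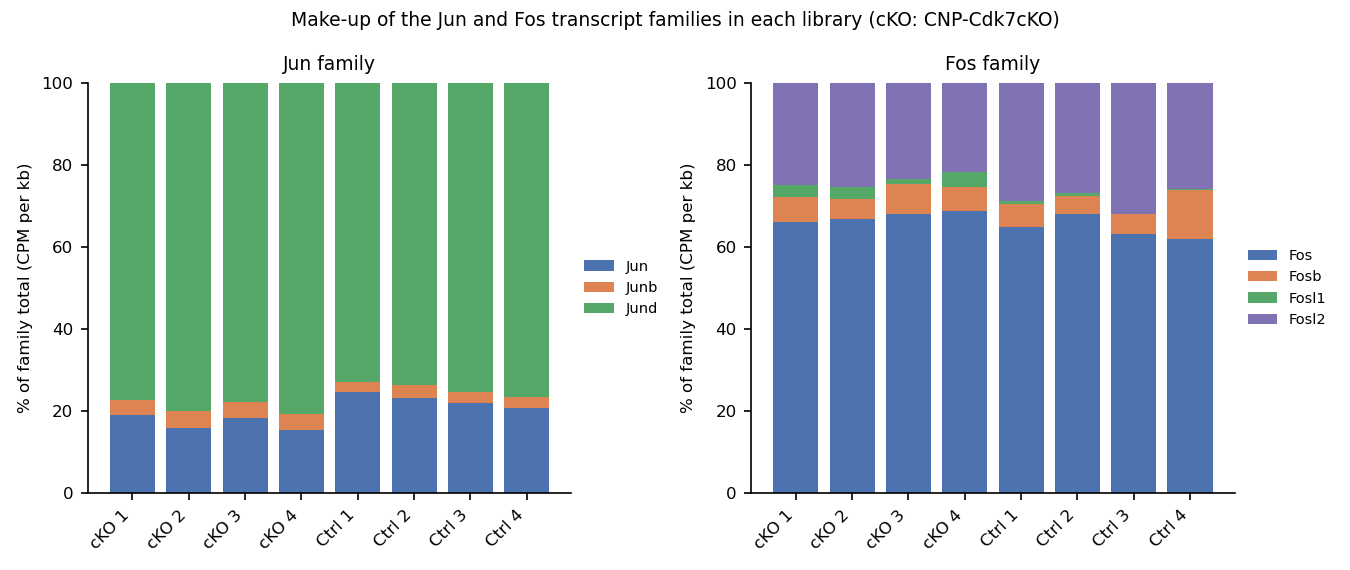
Share of each gene in the summed CPM per kb of the Jun family (left) and of the Fos family (right), in percent, in CNP-Cdk7cKO 1 to 4 and then Ctrl 1 to 4. Jun and Fosl2 take a smaller share, and Junb, Jund and Fosl1 a larger one, in each CNP-Cdk7cKO library than in any Ctrl library. The shares of Fos and Fosb overlap.

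Around these genes, calls were few and ran both ways in the transcription factors, and ran upward among effector genes. In 9 lists of related genes 19 of 144 tested genes rose and 7 fell (median log2 fold change 0.02). The counts of each list are to be read against the 5.07% of all tested genes that were higher and the 6.60% that were lower. The calls of the other immediate early transcription factors (1 higher and 2 lower of 19) and of the kinases (3 lower of 26) lie near those shares. Of 10 tested AP-1 partners outside the members, Maff, a small Maf protein without an activating domain, rose (log2 fold change 0.90 ± 0.22), and Jun and Mafg (-0.18 ± 0.05) fell. Maff was called in 3 and Mafg in 1 of the 8 fits that left out a library, and without CNP-Cdk7cKO 4, Ctrl 1 or Ctrl 2 this list had 0 calls. In the EGR family and its NAB corepressors 0 of 4 passed by edgeR, by DESeq2, by limma-voom or at an unadjusted p under 0.05. Egr2, the Schwann cell regulator of myelination, averaged 256.7 CPM in CNP-Cdk7cKO and 262.1 CPM in Ctrl, and Nab2 127.8 and 131.8 CPM. Of 19 other immediate early transcription factors Hes1 rose (0.32 ± 0.08) and Bhlhe40 (-0.30 ± 0.06) and Klf11 (-0.40 ± 0.11), of the same family as Klf6, fell. Bhlhe40 was called in 8 of the 8 fits that left out a library, and Hes1 and Klf11 in 3 each.

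Of 24 tested signalling and effector genes of the response 8 rose, with a list median of 0.09. They included Btg2, an antiproliferative gene that p53 also induces, which averaged 23.5 ± 1.10 CPM in CNP-Cdk7cKO and 15.2 ± 1.67 CPM in Ctrl (SD, n = 4 each; log2 fold change 0.63 ± 0.08 SE, edgeR adjusted p = 0.00108). Ier5l, the paralog of Ier5 (0.57 ± 0.09), Hbegf, an EGF receptor ligand (0.49 ± 0.08), and Ppp1r15a, a phosphatase subunit that ends the stress block on translation (0.25 ± 0.05), were among them. By edgeR, DESeq2 and limma-voom 0 members of this list fell, against 2, 2 and 3 at an unadjusted p under 0.05. With a library left out, edgeR called 5 to 7 of the list higher, and without Ctrl 4 it called 1 lower. Feedback inhibitors of receptor signalling, phosphatases and decay factors rose in 3 of 19, all of them Sprouty genes: Spry1 (0.23 ± 0.05), Spry2 (0.32 ± 0.07) and Spry4 (0.34 ± 0.10). Spry1 and Spry2 were called in all 8 fits that left out a library and Spry4 in 2. In this list DESeq2 called 4 higher and 2 lower, limma-voom 6 and 1, and edgeR without CNP-Cdk7cKO 4 called 7 and 0. The lists of 10 heat shock genes and of 18 genes of the integrated stress response each had 3 members that rose. In the first these were Hspa1b (0.92 ± 0.08), Hspa1a (0.45 ± 0.11), near-identical copies whose reads may be split between them, and Hsp90aa1 (0.19 ± 0.05), of which Hspa1b was called in all 8 fits that left out a library, Hspa1a in 3 and Hsp90aa1 in 2. In the other they were Sesn2, Slc7a5 (0.39 ± 0.05) and Ddit4 (0.41 ± 0.08), each called in all 8.

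Upstream, few signalling genes passed. Of 26 tested kinases of the ERK, JNK and p38 cascades 3 fell: Map3k5 (-0.59 ± 0.14), Map3k1 (-0.27 ± 0.07) and Map2k7 (-0.15 ± 0.04). They were called in 5, 3 and 1 of the 8 fits that left out a library. The list had 0 lower calls without CNP-Cdk7cKO 1 or Ctrl 3, 1 without CNP-Cdk7cKO 2, Ctrl 1, Ctrl 2 or Ctrl 4, and 5 by DESeq2 and by limma-voom. Among 14 genes of serum response factor, its cofactors and CREB 0 passed by edgeR, DESeq2 or limma-voom, against 2 at an unadjusted p under 0.05 by edgeR. The highest of these, Crtc3 and Crtc1, which are CREB coactivators, averaged 102.8 and 82.5 CPM in CNP-Cdk7cKO and 110.1 and 77.5 CPM in Ctrl. Only Sesn2 and Hspa1b of these 9 lists were called once Xist was added as a covariate to the edgeR fit. That fit compares CNP-Cdk7cKO mainly with Ctrl 1.

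**Figure D5:**
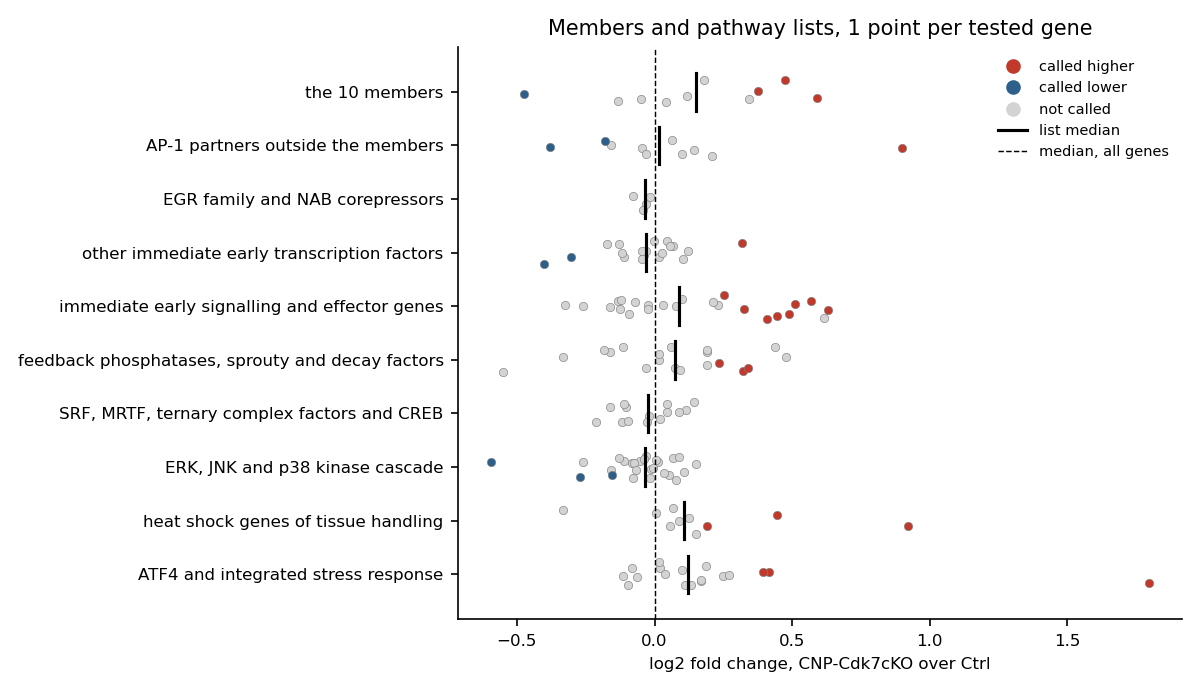
Log2 fold change, CNP-Cdk7cKO over Ctrl, of each tested gene in the 10 members and in 9 lists of related genes (1 point per gene, spread vertically at random), with the list median as a black bar and the median of all tested genes as a dashed line. Called genes lie right of 0 in the effector, feedback, heat shock and stress response lists, and on both sides of 0 among the members and the transcription factor lists.

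Across libraries the members did not move as a block. CNP-Cdk7cKO 3 held the highest value of its group for 5 of the 10 members and CNP-Cdk7cKO 2 for 0, and in Ctrl the highest was spread over all 4 libraries. The mean of the members' log2 CPM, each centred on its mean over 8 libraries, ran between -0.03 and 0.23 in CNP-Cdk7cKO and between -0.12 and -0.00826 in Ctrl. Of 9618 other genes with a mean of at least 10 CPM, the profiles closest to this mean were those of Ppfia3, Prelid3b, Isoc1, Ccdc8 and Cdca7, with a mean absolute difference of 0.0215 to 0.0339 in log2 CPM over the 8 libraries. For Fos alone they were Ltbp1, Dusp12 and Cep162 (0.0263 to 0.0442), for Egr1 Nckap1l, Sncaip and Sema5b (0.0848 to 0.0919), and for Atf3 Hmgn2, Rras and Nup93 (0.0350 to 0.0394). The mean profile itself spanned 0.35 in log2 CPM, and those of Fos, Egr1 and Atf3 spanned 0.41, 0.98 and 0.41. Picked as the closest of 9618, such genes need not share control with the members.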

How the data were processed

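RNA was purified on RNeasy Mini columns with DNase treatment, and stranded mRNA libraries were made from total RNA of sciatic nerve, per the labels' protocols. The deposited values are estimated counts for Ensembl genes; the submitters' processing notes name STAR, Salmon and GRCm38 and give no version, setting or annotation release. Fractional values (8.29%) were rounded, a shift of 0.000113% or less in any library's total. Symbols and positions came from GENCODE M21 (GRCm38), which named 55227 rows and left 260 unnamed. Replicates differed more than counting gives (chi-square per degree of freedom 3.86 to 17.6), so none was merged.

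Low genes were removed by filterByExpr (10 counts at least, 15 in total), and the rest normalized by TMM and compared with the quasi-likelihood test of edgeR 4.0.16 (R 4.3.3), with DESeq2 1.42.0 and limma 3.58.1 voom as alternatives; the steps were tested on simulated data. CPM are TMM-scaled. The standard error is the log2 fold change over the square root of F. Log2 CPM profiles used a prior count of 2. The members and lists were chosen with earlier results of these data known. 1 Schwann cell marker of the list is not reported here. All members and Cdk7 were named, and from each list up to 4 called genes with the smallest p, or the 2 with the highest mean CPM. Motif and exon counts were chosen after the fold changes were seen. The alternatives are named in the closing section.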

Additional observations from a re-analysis of the deposited data

Results flagged for a closer look

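Fosb was at 9.07 CPM in Ctrl 4, far from the 3.10 to 3.98 CPM of the other 3 controls. The summed adipocyte markers of CNP-Cdk7cKO 4, at 27.7 CPM, stood apart from 12.5 to 13.4 CPM in the other 3 knockout libraries. The gap to the nearest library was 0.853 and 0.938 of the group's range, above Dixon's critical value for 4 samples at the 95% level. Chance flags about 1 in 20 groups, and 42 groups were examined.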

How the results depend on the processing

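Relative to 3 members higher and 1 lower, 1 and 0 were called with Xist as a covariate, and 0 and 0 with the muscle markers, with the heat shock genes as a covariate or in the female libraries alone; leaving out a library gave 2 to 3 higher and 1 lower. Of all genes, 75 were higher and 163 lower with Xist, 83 and 117 with the muscle markers, 4 and 3 with the heat shock genes, and 37 and 77 in the female libraries, against 470 to 655 and 653 to 860 with a library left out. In the 9 related lists, 2 were higher and 0 lower with Xist and in the female libraries, 2 and 1 with the muscle markers, and 1 and 0 with the heat shock genes; 11 were lower by DESeq2, and 13 to 20 were higher and 1 to 9 lower with a library left out. With the heat shock genes Cdk7 itself lost its call (-0.76, edgeR adjusted p = 0.236), and standard errors of the members were 2.39 times wider. The covariate was the mean log2 CPM of the heat shock list. The summed CPM of that list, a different measure, did not overlap between groups (1805 to 1878 in CNP-Cdk7cKO, 1702 to 1796 in Ctrl). The cause of the lost calls was not tested. Fosb turned positive by limma-voom (0.20), with the replicate block (0.052), Xist (0.27), the muscle markers (0.89), the heat shock genes (0.025) and in the female libraries (0.24), and ran from -0.21 to 0.45 with a library left out; Atf3 was -0.0089 with the muscle markers and ran from -0.027 to 0.11. Ier2 did not pass by limma-voom (adjusted p = 0.0522). Same-numbered libraries deviated together with correlations of 0.0089 to 0.127, within the -0.156 to 0.168 of other pairs, so they were not treated as pairs. The replicate block gave 682 higher and 926 lower genes, and under it Egr1 was called (0.34, edgeR adjusted p = 0.0113). RLE factors, TMM without muscle, erythroid, adipocyte, heat shock and mitochondrial genes, no count filter and a filter of 1 CPM in 4 libraries changed no member's call. Fosb, at 60 to 186 counts, is the member that depth limits most.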

Other observations

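Long genes were lower and short genes higher in CNP-Cdk7cKO, a pattern examined because the members that rose are short. Tested protein-coding genes were split into 5 equal classes of genomic span. The median log2 fold change was 0.05 in the shortest class (up to 8.45 kb), then 0.04, 0.01 and -0.03, and -0.06 in the longest (from 74.1 kb). In the longest class 11.5% of 2743 genes were lower and 3.54% higher, against 4.52% and 6.85% of 2744 in the shortest. Within the shortest class, genes whose longest transcript has 1 exon had the same median as the others (0.05), with 9.64% against 6.31% higher. The median of the shortest less that of the longest class, in centred log2 CPM, was -0.0050, 0.012, 0.023 and 0.19 in CNP-Cdk7cKO 1 to 4 and -0.04, -0.07, -0.05 and -0.07 in Ctrl 1 to 4. CNP-Cdk7cKO 4 thus stood apart; without it the medians were 0.03 in the shortest and -0.04 in the longest class. The sign at both ends was the same under every alternative run, with -0.03 to -0.09 in the longest class.

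The median log2 fold change also differed by the number of AU-rich heptamers (TATTTAT) in the 3′ UTR. The median log2 fold change was 0.02 for 9139 genes with 0 heptamers, -0.02 for 2655 with 1, -0.06 for 907 with 2 and -0.06 for 561 with 3 or more. The share called lower did not follow this order: it was 6.46%, 8.36%, 9.70% and 7.31% in these classes, against 7.10% of all 13262 genes. Other settings and single libraries were not examined for it. Klf6, which fell, has 2 heptamers, and Junb, Ier2 and Ier5, which rose, have 0, as do 68.9% of the genes. Fos and Fosl2, which did not pass, have 2 and 3. The number of heptamers grows with UTR length, and its part was not tested.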
